A study of Mus musculus with 2 samples.

Results

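The 8 microRNA genes followed here in the hindbrain of newborn mice are known for their response to neuronal activity or for control of dendrites and synapses: Mir132, Mir212, Mir137, Mir138-1, Mir138-2, Mir129-1, Mir129-2 and Mir384. They were taken by symbol, with no rule on their values but with earlier results of these data known, and all 8 had a row among the 1973 microRNA genes of the tables. The tissue was the hindbrain of strain B6NCrl at 0 days after birth, with no treatment named and the sex not collected. The 1 group holds 2 small-RNA libraries (labelled size range below 30 nt), made from 1 hindbrain apiece, of pup 1 and of pup 3. With 1 group there is no condition to compare, so the data give the level of each gene and how closely the 2 pups matched.

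MicroRNAs are cut from a hairpin precursor, and either arm of the hairpin can yield a mature RNA of about the length of these reads, which lowers the output of messenger RNAs that pair with its seed (bases 2 to 8). miR-132 and miR-212 come from neighbouring hairpins and are known to be induced by neuronal activity through the transcription factor CREB, and miR-132 is known to promote growth of dendrites. miR-137 is known from neuronal maturation and from synaptic vesicle release, miR-138 from the size of dendritic spines, miR-129 from repression of a potassium channel in dendrites, and miR-384 from long-lasting potentiation of hippocampal synapses.

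The mature sequences show which of the 8 genes can yield the same small RNA, and they are printed 5′ to 3′ from RefSeq (GRCm38.p6) with the seed in capitals. RefSeq lists 15 arms for the 8 genes, with 13 distinct sequences and 12 distinct seeds. No 3p arm is listed there for Mir129-1, although its hairpin holds the seed bases of miR-129-2-3p.
miR-132-3p: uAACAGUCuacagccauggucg
miR-212-3p: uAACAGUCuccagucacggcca
miR-137-3p: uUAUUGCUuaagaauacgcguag
miR-138-5p, from Mir138-1 and Mir138-2: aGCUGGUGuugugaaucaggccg
miR-138-1-3p: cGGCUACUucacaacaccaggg
miR-138-2-3p: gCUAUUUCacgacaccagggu
miR-129-5p, from Mir129-1 and Mir129-2: cUUUUUGCggucugggcuugc
miR-129-2-3p: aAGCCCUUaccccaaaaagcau
miR-384-5p: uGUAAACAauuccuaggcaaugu
miR-30e-5p, shown for its seed: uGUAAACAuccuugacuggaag

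miR-132-3p and miR-212-3p share the seed and 17 of 22 bases. They differ by A10C, C14U, U17C, U20C and G22A, with the base of miR-132-3p first and positions counted from 1 at the 5′ end. miR-384-5p has the seed of the miR-30 family, which the RefSeq table used here also lists for Mir30a, Mir30c-1, Mir30c-2 and Mir30e. Past the seed it is a different RNA. Over the whole arm, with the shared seed counted, it matches miR-30e-5p at 11 of 22 positions and miR-30a-5p at 12 of 22. miR-138-5p is identical at 2 hairpins on different chromosomes, and so is miR-129-5p.

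Reads with several mapped places appear as 1 summed row that names no gene, so what a hairpin shares with another bears on what its count can hold. The hairpins of both pairs of copies are shown with the bases that lie in a run of at least 20 nt shared with the other copy in capitals.
Mir138-1: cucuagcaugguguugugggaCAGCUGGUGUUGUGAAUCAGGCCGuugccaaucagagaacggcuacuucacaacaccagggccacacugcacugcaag
Mir138-2: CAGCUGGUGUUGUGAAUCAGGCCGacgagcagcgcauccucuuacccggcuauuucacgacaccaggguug
Mir129-1: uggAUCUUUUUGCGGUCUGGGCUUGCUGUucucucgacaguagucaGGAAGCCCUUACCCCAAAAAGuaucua
Mir129-2: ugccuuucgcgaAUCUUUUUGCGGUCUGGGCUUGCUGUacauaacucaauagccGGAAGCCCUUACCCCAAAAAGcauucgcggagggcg

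In the Mir138 hairpins a single run of 24 nt is shared, and it holds the whole 5p arm, while each 3p arm is found at its own hairpin only. In the Mir129 hairpins 2 runs are shared, of 26 nt over the 5p arm and of 21 nt over most of the 3p arm. miR-129-2-3p as listed, with its last bases outside the shared run, occurs at Mir129-2 only. Across the hairpin, 5 of 80 windows of 20 nt in Mir138-1 and 5 of 52 in Mir138-2 occur at the other copy. The same holds for 9 of 54 windows in Mir129-1 and 9 of 71 in Mir129-2. No window of Mir132, Mir212, Mir137 or Mir384 occurs at another annotated microRNA locus. Of the 1894 genes in the tables with a hairpin sequence, 929 share at least 1 such window.

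**Figure D1:**
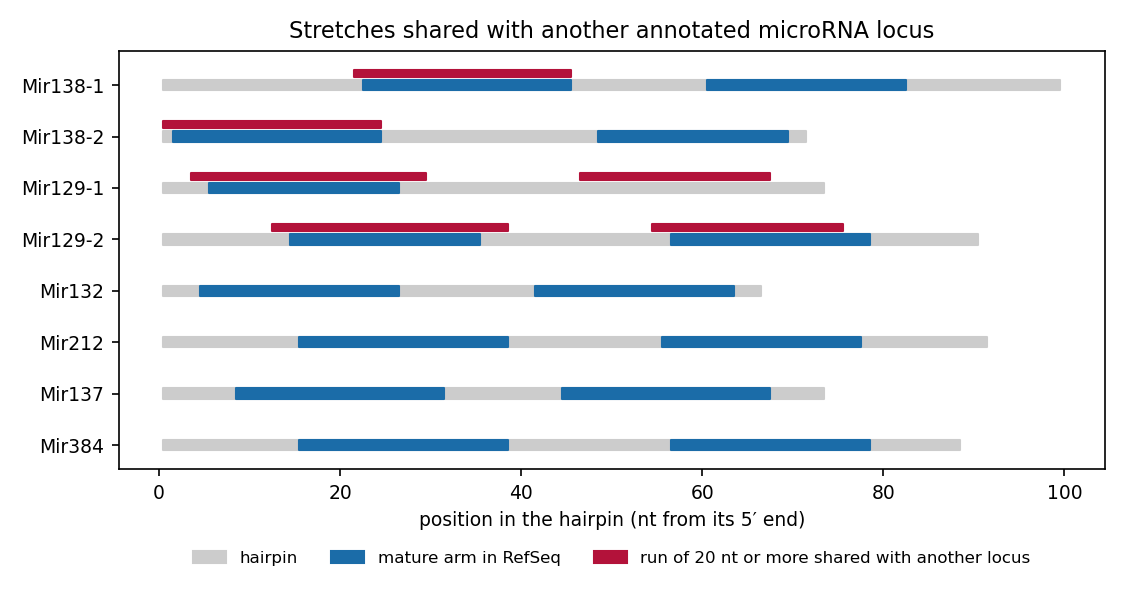
Each of the 8 hairpins as a grey bar against position in nt from its 5′ end, with the mature arms listed by RefSeq in blue and, above it, runs of 20 nt or more shared with another annotated microRNA locus in red. The Mir138 hairpins share 1 run over the 5p arm, the Mir129 hairpins share 2 runs, and the other 4 hairpins have none.

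The 8 genes lie at 7 places in the genome (mm10, GENCODE M21). Mir212 (chr11:75173388-75173478) and Mir132 (chr11:75173682-75173747) lie on the plus strand in an intron of 1700016P03Rik, and Mir132 starts 204 nt past the end of Mir212. Mir137 (chr3:118433857-118433929, plus strand) lies in an exon of Gm26871 in both transcripts that span it. Mir138-1 (chr9:122682876-122682974, plus strand) lies in an exon of the pseudogene Gm47135, and Mir138-2 (chr8:94324311-94324381, plus strand) in an exon of the long non-coding RNA C78859. Mir129-1 (chr6:29022619-29022691, plus strand) lies in an exon of the long non-coding RNA Gm3294. Mir129-2 (chr2:94241364-94241453, minus strand) lies in introns of Mir670hg, opposite Mir129b. Mir384 (chrX:105344282-105344369, minus strand) lies within no other gene on its strand and overlaps no other microRNA gene.

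Same-strand counts over all microRNA genes summed to 2459757 in pup 1 and 3012320 in pup 3, 42.3% and 42.0% of all reads in the tables. Reads mapped to several loci made up 40.2% and 42.0% of all reads. Levels are in CPM, in which a gene's counts are divided by these sums and scaled as usual, with no scaling by length, since mature microRNAs are of like length. The tissue label was set against fixed marker microRNAs. The hindbrain position markers Mir10a and Mir10b summed to 56575 CPM in pup 1 and 33740 CPM in pup 3, and the 6 neuronal markers to 9195 and 12309 CPM, with 3 of those 6 at 10 CPM or more in both pups. The other 3, the Mir124a-1, Mir124a-2 and Mir124a-3 copies of the defining neuronal marker miR-124, did not reach 10 CPM in both pups, and how many of their reads map to several loci is not recorded. Markers of striated muscle summed to 100.4 and 126 CPM, nearly all from Mir206 at 98.4 and 125 CPM. It was the only 1 of 5 at 10 CPM or more in both pups, and Mir133a-1, Mir133a-2 and Mir1a-1 had no count. The 1 liver marker stood at 41.9 and 45.5 CPM.

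All 8 genes were detected, with at least 100 CPM in each pup, and together they held 1.88% ± 0.00659 of the counts (SD, n = 2). The summed share was 1.87% in pup 1, with an exact 95% interval of 1.86% to 1.89%, and that of pup 3 was 1.88% (1.87% to 1.90%). Mir137 alone made up 61.9% of the 8 genes' counts in pup 1 and 70.3% in pup 3. The other 7 genes summed to 0.714% and 0.559% of counts in pups 1 and 3. The steady total thus holds a higher Mir137 and a lower sum of the rest in pup 3. The median of the 8 mean levels was 899.5 CPM, against 403 CPM over the 306 genes at 10 CPM or more in both pups.

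Mir137 (ENSMUSG00000065569.1) was the most abundant of the 8 by far and place 17 of all genes. It had 28503 counts, or 11588 CPM, in pup 1 and 39849 counts, or 13229 CPM, in pup 3. The mean was 12408 ± 1160 CPM (SD, n = 2), 6.08 times that of the next gene, and the ranges of these genes over the pups did not overlap. The nearest microRNA gene, Gm24155, lies 792 nt away and had no count in either pup.

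Mir132 (ENSMUSG00000065537.1) followed, with 1975 CPM in pup 1 and 2110 CPM in pup 3, from 4858 and 6356 counts. The mean was 2042 ± 95.5 CPM, the smallest spread relative to the mean among the 8 (a coefficient of variation of 4.67%). Its neighbour Mir212 (ENSMUSG00000065590.1) had 324 counts in pup 1 and 310 in pup 3, or 132 and 103 CPM, and was the lowest of the 8 at 117 ± 20.4 CPM. Mir132 therefore exceeded Mir212 by 15.0 times in pup 1 and 20.5 times in pup 3, although both lie in the same intron on the same strand. As a share of the pair's counts, Mir132 held 93.7% in pup 1, with an exact 95% interval of 93.1% to 94.4%, while its share in pup 3 was 95.3% (94.8% to 95.8%). These intervals do not overlap, so the balance within the pair differed between the libraries by more than counting error. The intervals cover counting error within each library only, and no correction with molecular identifiers was made here.

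The copies of miR-138 were next in level. Mir138-1 (ENSMUSG00000065414.1) stood at 2031 CPM in pup 1 and at 1167 CPM in pup 3, from 4996 and 3515 counts, a mean of 1599 ± 611 CPM. Mir138-2 (ENSMUSG00000065512.2) had 1232 and 775 CPM from 3030 and 2335 counts, a mean of 1003 ± 323 CPM. Both copies were lower in pup 3, and Mir138-1 was above Mir138-2 in each pup. Mir138-1 held 62.2% of the pair's counts in pup 1, with an exact interval of 61.2% to 63.3%, and its share in pup 3 was 60.1% (58.8% to 61.3%). The intervals overlap narrowly, and each share lies outside the interval of the other pup. Such an overlap does not show that the balance was unchanged, and the difference in share was not tested. Because miR-138-5p is the same at both hairpins, full-length reads of that arm map to several loci. These counts may therefore hold less than all of miR-138, and which arm they come from is not recorded in the tables.

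The copies of miR-129 were further apart. Mir129-2 (ENSMUSG00000065511.1) stood at 980 CPM in pup 1 and at 611 CPM in pup 3, from 2411 and 1840 counts, a mean of 796 ± 261 CPM. Mir129-1 (ENSMUSG00000065469.1) had 251 and 150.4 CPM from 617 and 453 counts, a mean of 201 ± 71.0 CPM. Both were lower in pup 3, and the share of Mir129-1 in the pair was 20.4% in pup 1, with an exact interval of 19.0% to 21.9%, and 19.8% in pup 3 (18.1% to 21.4%). These intervals overlap, and each share lies inside the interval of the other pup. No difference in the balance of the copies was thus seen, while both levels differed beyond counting error. The limit from reads that map to several loci holds here for full-length reads of the 5p arm. For the 3p arm it holds only for reads that lie within the shared run. As listed, miR-129-2-3p occurs at Mir129-2 only. Mir670, the next microRNA gene, 19847 nt from Mir129-2, had 87.4 and 78.3 CPM.

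**Figure D2:**
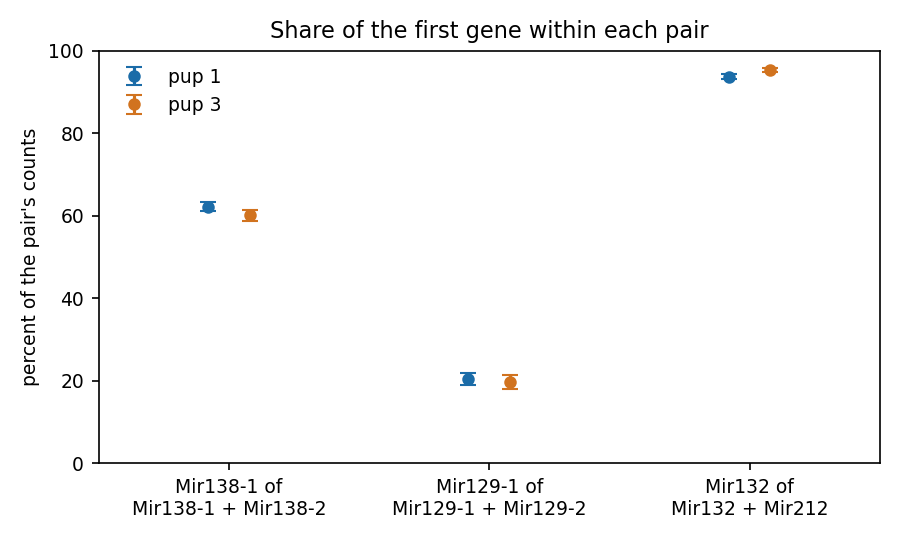
Share of the first-named gene in the summed counts of each pair, in percent, for pup 1 (blue) and pup 3 (orange), with exact 95% binomial intervals as bars. The pups' intervals overlap narrowly for Mir138-1 and more broadly for Mir129-1, and do not overlap for Mir132.

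Mir384 (ENSMUSG00000065499.1) had 1327 counts in pup 1 and 2037 in pup 3, or 539 and 676 CPM, a mean of 608 ± 96.7 CPM. It was the only gene of the 8 with an opposite-strand read, a single read in pup 3, against 102761 reads of all 8 genes on their own strand. Of the genes whose arms carry the miR-384-5p seed in the RefSeq table used here, Mir30e, at 20299 ± 1984 CPM, and Mir30a, at 9480 ± 1008 CPM, were far above Mir384 in both pups. Mir30c-1 and Mir30c-2, which share their 5p arm, had 57.7 ± 2.30 and 36.1 ± 1.57 CPM. The family members Mir30d, with 21444 and 23211 counts in pups 1 and 3, and Mir30b, with 533 and 606 counts, were not in that table, so no share of the seed is given. Counts are per hairpin and do not give how much of each arm was present. Mir325, the nearest microRNA gene on the X chromosome at 34713 nt, had 575 and 784 CPM.

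In order of mean level the genes ran Mir137, Mir132, Mir138-1, Mir138-2, Mir129-2, Mir384, Mir129-1 and Mir212. The ranges of neighbours did not overlap between Mir137 and Mir132, between Mir384 and Mir129-1, and between Mir129-1 and Mir212. The other 4 neighbouring pairs had overlapping ranges, and in 2 of them the order turned between the pups. Mir138-1 was above Mir132 in pup 1 and below it in pup 3, and Mir129-2 stood in the same way to Mir384.

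**Figure D3:**
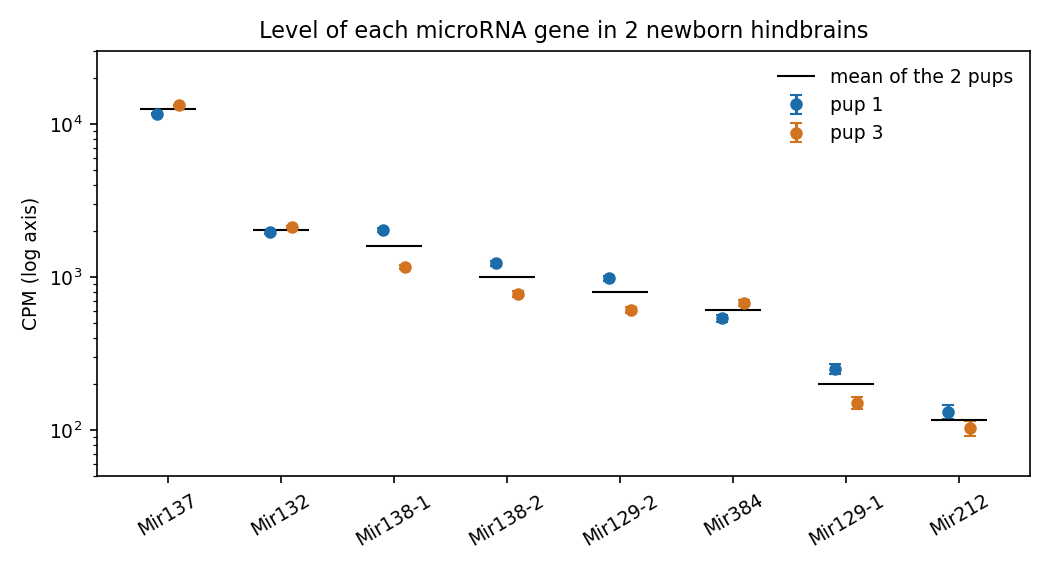
CPM of the 8 genes on a log axis for pup 1 (blue) and pup 3 (orange), with exact 95% binomial intervals as bars and the mean of the 2 pups as a line. The points of Mir132 lie close together at 1975 and 2110 CPM, while Mir138-1 ranges from 1167 to 2031 CPM.

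The 2 libraries were then compared gene by gene with an exact binomial test given scaled totals, with Benjamini-Hochberg adjustment over the 395 genes that reached 10 counts in pup 1 or pup 3. A pass means that the libraries differ by more than counting error, with no bearing on a condition. Of the 8 genes, 7 passed at an adjusted p below 0.05, where 46.8% of the tested genes did. Among the 226 tested genes at 100 CPM or more in both pups, as all 8 were, 68.1% passed. In pup 3, 2 genes were higher, against 25.6% of all tested genes, and 5 were lower, against 21.3%. These shares by direction were not taken for the genes at 100 CPM or more, which passed more often. With scaling factors taken from the tested genes only, the split over all tested genes turned from 101 higher and 84 lower to 76 higher and 105 lower, while the 8 genes kept 2 higher and 5 lower. The median log2 fold of pup 3 over pup 1 was -0.56 over the 8 genes and 0.02 over all tested genes.

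The 5 genes lower in pup 3 were both Mir138 copies, both Mir129 copies and Mir212. Mir138-1 had a log2 fold of -0.85 (95% counting interval -0.92 to -0.79, adjusted p = 3.76e-160, exact binomial test), or 1.81 times higher in pup 1. Mir138-2 had a log2 fold of -0.72 (-0.80 to -0.64). Mir129-1 had -0.79 (-0.97 to -0.61) and Mir129-2 had -0.74 (-0.82 to -0.65). The 4 copies thus had like folds, at places 20, 27, 23 and 25 from the lowest of 395. The 4 copies were counted in the same 2 libraries, so they are not 4 independent observations. Mir212 had the smallest fall, with a log2 fold of -0.41 (-0.64 to -0.18, adjusted p = 0.00103, exact binomial test).

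Mir384 and Mir137 were higher in pup 3, with log2 folds of 0.27 (0.17 to 0.37, adjusted p = 2.53e-07, exact binomial test) and 0.14 (0.12 to 0.16, adjusted p = 3.3e-34, same exact test). Mir132 did not pass, with a log2 fold of 0.04 (-0.01 to 0.10, adjusted p = 0.214, exact binomial test). Its direction turned to -0.03 with factors from the tested genes, and with plain totals it passed at 0.10 (adjusted p = 0.00144, exact binomial test). The counting intervals of Mir132 and of its neighbour Mir212 did not overlap.

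Set against the spread between pups, these differences were not called. The common biological coefficient of variation was 16.5% over 361 genes, which gives an SD of 0.34 (log2) for the fold between 2 pups. The 4 copies lay 2.16 to 2.55 such SDs from 0, Mir212 lay 1.22, and Mir137, Mir132 and Mir384 lay under 1. In edgeR's exactTest with that dispersion, 0 of the 8 genes passed after adjustment (lowest adjusted p = 0.555, Mir138-1), and 4, the Mir138 and Mir129 copies, had an unadjusted p below 0.05. Of all 395 tested genes, 0.506% passed after adjustment and 23 had an unadjusted p below 0.05 in this exactTest. The dispersion was estimated from the same 2 pups, so the test is not independent of their differences. In bulk tissue, fewer cells of a type and less RNA per cell cannot be told apart.

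**Figure D4:**
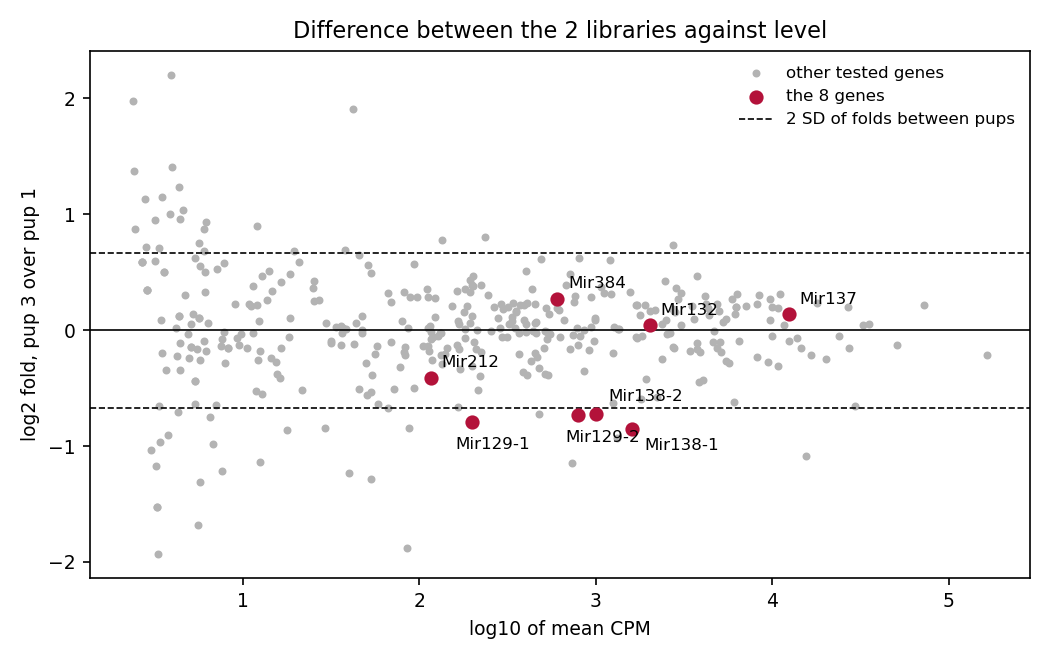
Log2 fold of pup 3 over pup 1 against log10 of the mean CPM for 395 tested genes, with the 8 genes in red and dashed lines at 2 SD of folds between pups. The 4 copies of miR-138 and miR-129 lie just below the lower line, between -0.85 and -0.72, and the other 4 genes lie inside the lines.

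Other measures that differed between the genes or between the pups were set beside these folds. Hairpin GC content was 33.0% in Mir384, 45.2% in Mir137 and 57.6% in Mir132, and 69.2% in Mir212, 54.5% and 57.7% in Mir138-1 and Mir138-2, and 47.9% and 53.3% in Mir129-1 and Mir129-2. Over the 395 tested genes Spearman's rho of fold and GC content was -0.14, a description only, since all genes share the same 2 libraries. After a straight-line correction for GC content, chosen after the values were seen, Mir212 (log2 fold -0.25, adjusted p = 0.0728, exact binomial test) and Mir384 (0.11, adjusted p = 0.0543, same exact test) no longer passed, Mir132 passed at 0.10 (adjusted p = 0.000643, same exact test), and the 4 copies stayed between -0.82 and -0.66. Among the marker sums, those of hindbrain position were lower in pup 3 and those of neurons higher, with the values given above. The sums of red blood cell markers (151 and 104.6 CPM in pups 1 and 3, 2 of 2 detected) and of neural progenitor markers (3363 and 3095 CPM, 2 of 3 detected) were lower in pup 3. The 2 red blood cell markers went opposite ways, so their sum gives no common direction. Mir451a had 329 and 113 counts in pups 1 and 3, and Mir144 had 42 and 202. Those of oligodendrocyte markers (1508 and 1885 CPM, 2 of 2), of leukocyte and microglia markers (169 and 229 CPM, 1 of 2, with Mir142b at 0) and of the endothelial marker Mir126a (34216 and 36931 CPM) were higher in pup 3. The part of these measures in these folds was not tested.

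A further 41 microRNA genes known from synapses were listed, of which 37 had a row and 32 reached 10 CPM in both pups. The median of their mean levels was 453 CPM. The 5 most abundant were Mir30a, known from control of the growth factor BDNF, at 9480 ± 1008 CPM, Mir135b at 6322 ± 1120 CPM, Mir128-1, known from neuronal excitability, at 5957 ± 941 CPM, Mir125a at 5147 ± 341 CPM and Mir324 at 5033 ± 130.1 CPM. Mir137 was above each of these. The 20 list genes that share a 20-nt window with another microRNA hairpin had a median of 166 CPM, and the other 17 had 1076 CPM. Between the pups, 13 of 34 tested list genes were higher in pup 3, against 25.6% of all tested genes. A further 8 were lower, against 21.3%, and 13 did not pass. The median log2 fold of the 34 was 0.05. Of the list genes, 28 were at 100 CPM or more in both pups, a level at which 68.1% of 226 tested genes passed. Shares by direction were not taken at that level.

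For each of the 8 genes the gene nearest in level over the 2 libraries was found among 298 other genes at 10 CPM or more in both pups, by Euclidean distance in log2(CPM + 1). Over 2 libraries this measures like level and little else. Mir203, at 555 and 658 CPM, lay nearest to Mir384 (distance 0.06), Mir128-2, at 1880 and 2188 CPM, nearest to Mir132 (0.09), Mir877 nearest to Mir212 (0.11) and Mirlet7b nearest to Mir137 (0.13). The 4 copies had more distant neighbours, Mir346 for Mir129-1 (0.28), Mir351 for Mir129-2 (0.33) and for Mir138-2 (0.38), and Mir423 for Mir138-1 (0.33).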

How the data were processed

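Small-RNA libraries of 2 pups were used, with depths given above. The authors deposited raw read counts per microRNA gene against mm10, and their deposited file listings name GENCODE M4. Aligner, trimming and counter: not given in the sources used here. The meaning of the 3 count columns was inferred from the values: the first equals the sum of the others for all 1973 genes, and the second was taken as the strand of the gene. The 4 rows that name no gene held 57.7% and 58.0% of reads and stayed out of totals. By Ensembl identifier, 1894 rows matched GENCODE M21 symbols, and all 8 members matched RefSeq sequences by symbol.

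Scaling used TMM over all genes (edgeR 4.0.16, R 4.3.3), which moved folds by 0.05 (log2) against plain totals, and folds carry a prior of 0.5 counts. The exact binomial test used scipy 1.17.1, with code tested on simulated data. The simulated counts held counting error only, with plain totals, so they do not bear on the spread between pups. Quasi-likelihood tests need replicates on each side and were not run. A count of 0 allows up to 3 counts, 1.22 CPM in pup 1 and 0.996 CPM in pup 3. The libraries differed beyond sampling (chi-square 49286, 394 degrees of freedom).

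Named genes were the 8 members, their nearest gene in level, genes sharing a seed, the 5 most abundant of the further list and overlapping or neighbouring genes. Members and lists were chosen with earlier results of these data known. The GC correction and TMM over tested genes were alternatives added after the values were seen. Shared windows were searched in annotated hairpins and transcripts, not in the whole genome.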

Additional observations from a re-analysis of the deposited data

Results flagged for a closer look

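Reads that map to several loci, which no comparison uses, made up 41.1% of all reads as a mean of the 2 pups. Which genes they come from is not recorded, and full-length reads of miR-138-5p and miR-129-5p match 2 annotated hairpins each.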

How the results depend on the processing

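No paired analysis was possible because the series holds 1 group. The summed share of the 8 genes was 1.88% in the main setting, 1.82% with reads on either strand and 0.791% of all reads. All 8 were at 10 CPM or more in both pups under each alternative, with levels of 1 and 100 CPM tried as well. For the difference between the pups, 7 of the 8 genes passed in the main setting, 8 with plain totals, 6 with the GC correction and 0 with edgeR's exactTest (0 higher and 0 lower). With that test 2 of all tested genes passed, 1 higher and 1 lower, and in the other settings 177 to 196 did. The fold of Mir132 was reversed, at -0.032, with TMM over the tested genes. The other 7 folds kept their direction in all 8 alternatives. Of these, edgeR's exactTest and the setting with no filter on low counts keep the main fold by design, so they could not change a direction. Depth limits Mir212 most, with 324 and 310 counts. With 1 group of 2 pups, the spread between animals rests on 1 difference per gene, and leaving out a pup leaves no test.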
